A study of Mus musculus with 6 samples.

Results

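Krt12 and 8 further keratin genes best known from epithelia other than the epidermis were followed in the skin of newborn mice with constitutively active Nrf2. They are Krt4, Krt13, Krt7, Krt8, Krt18, Krt19, Krt20 and Krt23. Of the 34945 probe sets with a single gene symbol, all 15 whose updated symbol was among these 9 were taken, for 9 genes of 18193. Probe sets with several symbols were left out. The set was put together with results of this same comparison in view, above all the low Krt12 intensity in the transgenic skin. The group differences of these 9 genes are therefore described with their errors and carry no test. Back skin came from 6 female pups of a single litter at postnatal day 2.5, on a mixed FVB/N and C57BL/6 background, and each mouse gave 1 Affymetrix array. The 3 transgenic mice were K5cre-caNrf2 (tg/tg in the protocol, tg/g in the genotype cell), and the 3 controls were K5cre-wt (tg/wt). Cre under the keratin 5 promoter, shared by both groups, acts in basal keratinocytes and their progeny in epidermis and follicles, while whole skin also holds dermis, muscle, vessels and pigment cells. The titles call both groups "strong", a word that the labels do not explain.

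Keratins form the intermediate filaments of epithelial cells, always as a type I chain paired with a type II chain. Simple, single-layered epithelia use Krt8 and Krt7 (type II) with Krt18, Krt19, Krt20 or Krt23 (type I), the moist stratified mucosa of mouth and oesophagus uses Krt4 (type II) with Krt13 (type I), and the corneal surface uses Krt12 (type I). In skin, Krt8, Krt18 and Krt20 are known from Merkel cells, the touch receptor cells of the epidermis, Krt19 from the bulge and outer root sheath of the follicle, and Krt8, Krt18, Krt4 and Krt19 from the embryonic periderm.

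The DNA just upstream of Krt12 is shown because Krt12 had by far the largest difference of the 9 genes. That of Krt20, its neighbour on chromosome 11, is shown because it was the only member window with a match to the core of the antioxidant response element, the DNA motif bound by Nrf2 with small Maf proteins. Both are the 250 bases before the annotated start, from RefSeq on GRCm38.p6, minus strand, at chr11:99422260-99422509 for Krt12 and chr11:99438154-99438403 for Krt20. Capitals mark TATAAA in both and, in Krt20, also the element core.
Krt12: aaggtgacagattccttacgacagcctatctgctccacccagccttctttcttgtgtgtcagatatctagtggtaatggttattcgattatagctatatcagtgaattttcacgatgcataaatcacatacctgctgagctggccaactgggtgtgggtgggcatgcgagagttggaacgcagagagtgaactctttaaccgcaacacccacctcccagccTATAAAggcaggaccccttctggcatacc
Krt20: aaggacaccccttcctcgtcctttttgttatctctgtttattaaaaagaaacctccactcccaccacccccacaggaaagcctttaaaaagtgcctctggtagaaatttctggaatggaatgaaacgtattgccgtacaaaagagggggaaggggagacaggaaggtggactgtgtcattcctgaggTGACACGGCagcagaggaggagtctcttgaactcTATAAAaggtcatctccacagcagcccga
The TATAAA of both genes began at position -29 from the start. The core searched was TGACNNNGC, on both strands, in windows of 250 bases before to 50 bases after each start. It was found in 12.4% of all 32841 such windows, and TATAAA, on either strand, in 13.6%. Among the members, 7 of 9 genes had a window, Krt13 with a pair of them, while Krt4 and Krt19 had none in the table. The core stood in the Krt20 window alone, beginning at position -63, and in no window of Krt12, Krt7, Krt8, Krt18, Krt13 or Krt23. A match describes the letters and no site of binding.

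Krt12, the corneal keratin, was well above background in control back skin and far lower in caNrf2 skin. Its brighter probe set read 500.2, 376 and 513 in control replicates 1, 2 and 3, and 137, 127 and 102 in caNrf2 replicates 1, 2 and 3 (probe set intensity, linear scale). The other probe set, an _s_at set that may match more than 1 transcript, read 424, 284 and 434 in the controls and 128, 109.6 and 80.9 in caNrf2 skin. The groups lay far apart on both, the lowest control array being 2.74 times and 2.22 times the highest caNrf2 array. Control replicate 2 was the lowest control and caNrf2 replicate 3 the lowest caNrf2 array on both probe sets. Within a group the highest array exceeded the lowest by 1.37 times (control) and 1.35 times (caNrf2) on the brighter probe set. The means were 463 ± 75.9 and 122 ± 18.1 (SD, n = 3), a log2 difference of -1.92 ± 0.14 (SE), or 3.79-fold lower in caNrf2 skin. The other probe set gave -1.84 ± 0.19. Of all 18193 genes, 2 had a more negative log2 difference. With any single array left out the Krt12 difference stayed between -2.07 and -1.80. In whole skin, fewer cells that make a transcript and less transcript per cell cannot be told apart.

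**Figure D1:**
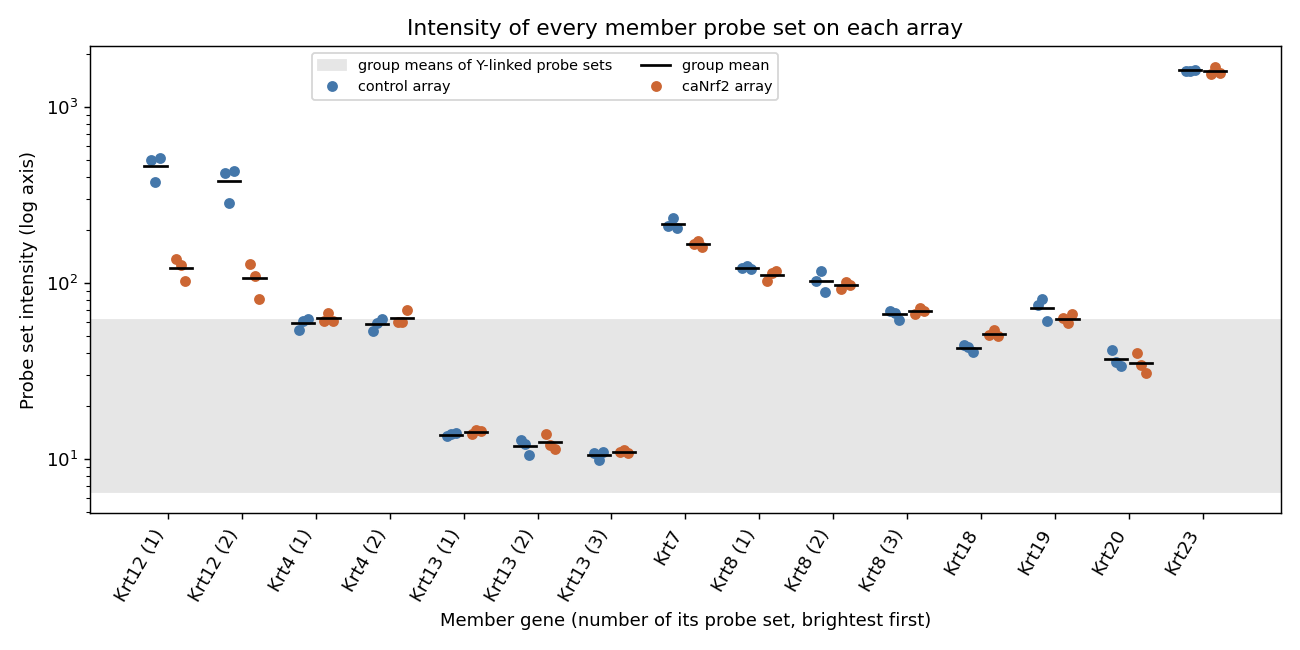
Probe set intensity (log axis) of all 15 probe sets of the 9 genes on the 3 control (blue) and 3 caNrf2 (orange) arrays, with black bars for group means and grey for the range of group means of Y-linked probe sets in these female mice (6.46 to 61.6). The Krt12 groups are widely separated, Krt7 more narrowly, and Krt13 lies within the grey range on every array.

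Levels are set against the Y-linked probe sets because females carry no Y chromosome. Of 20 such probe sets, 14 had both group means under 20, and the highest mean was 61.6. That upper limit rests on a single _x_at probe set of Sry (54.7 in control and 61.6 in caNrf2 skin). The other Sry probe set read 8.90 and 10.3, and the highest mean of any other Y-linked probe set was 46.9. Every Y-linked probe set with a group mean over 20 read higher in caNrf2 than in control skin. Among them were Tspy-ps (32.8 in control and 46.9 in caNrf2 skin) and Usp9y (30.5 and 33.6). Dimmer ones went both ways. Higher readings in caNrf2 skin were thus also seen for probe sets of a chromosome that these mice lack. Intensities of different probe sets depend on their probes, so the members are not ranked against each other. Krt13, Krt18 and Krt20 had every group mean within this range, and Krt4 lay at its upper edge. Krt12, Krt7, Krt8, Krt19 and Krt23 lay above it in both groups on all their probe sets, Krt19 and the dimmest Krt8 probe set only just.

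Among all genes, 1.39% were called lower and 2.26% higher in caNrf2 skin at a Benjamini-Hochberg adjusted p under 0.05 in limma, a moderated linear model fitted on log2 intensity over all 18193 genes. By that rule 2 of the 9 members counted as lower (Krt12 and Krt7), 0 as higher and 7 as not called, and without caNrf2 replicate 3 Krt12 alone counted as lower. Since the members were chosen on this contrast, nothing is read from that count. The median log2 difference was -0.08 over the 9 genes and -0.00 over all genes. Groups free of overlap were seen for 5 of the 15 probe sets (4 lower and 1 higher), against 24.1% of all probe sets with a single symbol.

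Krt7, a type II keratin of ducts, glands and other simple epithelia, was the other member counted as lower. Its only probe set read 209.6, 233 and 206 in the controls and 166, 172 and 159.6 in caNrf2 skin. All caNrf2 arrays lay below all controls, with a gap of 1.20 times between the closest arrays. The log2 difference was -0.38 ± 0.07 (SE, n = 3), or 1.301-fold lower. It stayed between -0.41 and -0.33 with any array left out.

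Krt8 and Krt18, the founding pair of simple epithelia, differed in sign. The brightest Krt8 probe set read 121, 125 and 119 in the controls and 103, 113 and 116 in caNrf2 skin, lower by a log2 difference of -0.14 ± 0.07. These groups did not overlap, but the closest arrays differed by a factor of only 1.03, and without caNrf2 replicate 1 the difference was -0.08. The next Krt8 probe set read 102, 117 and 89.0 against 92.0, 101 and 97.48 (-0.07 ± 0.10), and the dimmest 69.3, 67.7 and 61.6 against 66.0, 71.6 and 68.9 (0.06 ± 0.07). The 3 Krt8 probe sets thus differed in sign, and only the brightest separated the groups. Krt18 read 44.5, 43.3 and 40.3 in the controls and 50.4, 53.9 and 50.001 in caNrf2 skin. Every caNrf2 array was above every control, the reverse of the brightest Krt8 probe set. The Krt18 log2 difference was 0.27 ± 0.06, or 1.21-fold higher, at intensities inside the Y-linked range, and it was not called. Y-linked probe sets of like intensity also read higher in caNrf2 skin, such as Tspy-ps (32.8 in control and 46.9 in caNrf2 skin).

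Krt19, the smallest type I keratin, read 74.4, 81.0 and 60.7 in the controls and 62.8, 58.8 and 66.1 in caNrf2 skin. The groups overlapped because control replicate 3 lay among the caNrf2 arrays. Its log2 difference was -0.19 ± 0.10, and it was -0.31 without control replicate 3 and -0.10 without control replicate 2. Krt20, a keratin of intestinal, urothelial and Merkel cells, read 41.7, 35.6 and 33.5 in the controls and 39.9, 34.3 and 30.6 in caNrf2 skin, a log2 difference of -0.08 ± 0.11. The groups overlapped, each having an array outside the range of the other, and the sign turned to 0.01 without caNrf2 replicate 3 or without control replicate 1. Krt23, a less studied type I keratin, read 1611, 1601 and 1630.5 in the controls and 1539, 1682.5 and 1567 in caNrf2 skin. The control arrays lay inside the caNrf2 range, and the log2 difference was -0.02 ± 0.06.

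The mucosal pair Krt4 and Krt13 showed little difference between the groups. Krt4 read 54.1, 60.4 and 62.4 in the controls and 60.9, 67.3 and 60.3 in caNrf2 skin on its brighter probe set, a log2 difference of 0.09 ± 0.07. Its other probe set read 53.0, 59.4 and 61.9 against 59.7, 60.02 and 70.3 (0.12 ± 0.09). The groups overlapped on both, control replicate 1 being the lowest array each time. The difference on the brighter probe set was 0.03 without control replicate 1 and 0.04 without caNrf2 replicate 2. The 3 probe sets of Krt13 had group means from 10.5 to 14.2, inside the Y-linked range, and log2 differences from 0.05 to 0.08. Krt13 was thus not detectable above background in either group.

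**Figure D2:**
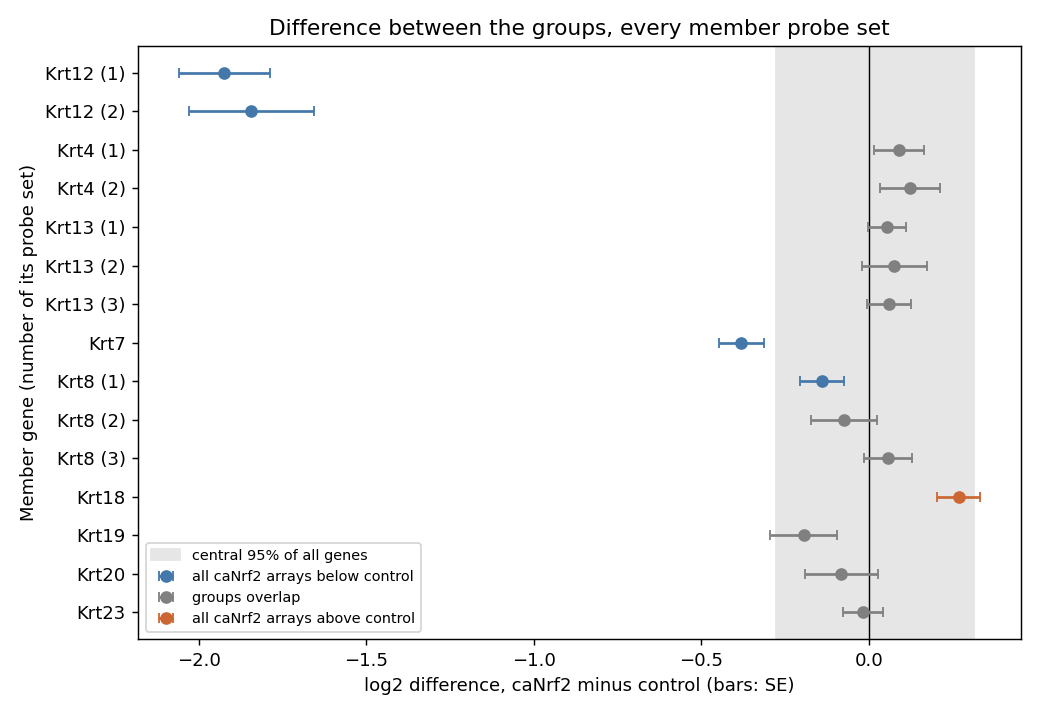
The log2 difference (caNrf2 minus control) with its SE for the 15 probe sets, blue where all caNrf2 arrays lay below all controls, orange where all lay above and grey where the groups overlapped. The pale band holds the central 95% of all genes, from -0.28 to 0.31; both Krt12 probe sets and Krt7 lie outside it on the low side.

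The 9 genes lie in the 2 keratin clusters of the mouse genome. In RefSeq order the 24 measured keratins of chromosome 11 include 5 members and the 24 of chromosome 15 include 4, Krt18 being the type I gene at the end of the type II cluster. Krt12 sits between Krt10, a keratin of the spinous layer, and Krt20, with Krt23 next. Krt10 had a log2 difference of 0.04 ± 0.06 and, like Krt20 and Krt23, was not called, so the genes beside Krt12 did not share a difference of its size. Krt8 and Krt18 are direct neighbours and differed in sign on their brightest probe sets. On the far side of Krt8 lies Krt78, which rose by 0.48 ± 0.06 (limma, adjusted p = 0.00124).

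Among the 39 other measured keratins, 4 rose, 5 fell and 30 were not called, a share of 23.1% called against 3.65% of all genes. Their median log2 difference was -0.13. The 4 that rose were Krt16, Krt78, Krt76 and Krt24. Krt16, also on chromosome 11, rose by 1.64 ± 0.10 on the log2 scale (limma, adjusted p = 1.49e-05). Krt76, a keratin of palate and gum and the direct neighbour of Krt4, had mean intensities of 34.5 ± 1.79 in control and 54.9 ± 10.2 in caNrf2 skin (SD, n = 3) and rose by 0.66 ± 0.11 on the log2 scale (limma, adjusted p = 0.0141). Krt24, a type I keratin, rose from 43.1 ± 1.59 to 54.7 ± 2.12, by 0.34 ± 0.06 (adjusted p = 0.0149). Both stayed within the Y-linked range in both groups. Y-linked probe sets of like intensity also read higher in caNrf2 skin, such as Tspy-ps (32.8 in control and 46.9 in caNrf2 skin). Leaving out control replicate 1 or 3 ended the Krt76 call (largest adjusted p = 0.0574), and leaving out caNrf2 replicate 1 or 3 or control replicate 2 ended that of Krt24 (largest adjusted p = 0.0612). The keratins that fell were Krt77 of the suprabasal epidermis, Krt26 and Krt72 of the inner root sheath, Krt75 of the companion layer and Krt15 of basal and bulge cells. The calls of Krt15 and Krt72 rested on 4 arrays each (largest adjusted p with 1 of them removed 0.0824 and 0.126). These arrays were control replicates 1 and 2 for both genes, with caNrf2 replicates 1 and 3 for Krt15 and 2 and 3 for Krt72. None of these 5 had a difference as large as that of Krt12, Krt77 having the most negative at -0.61 ± 0.08. Krt5, the basal type II keratin whose promoter drives Cre, gave 0.00 ± 0.06.

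**Figure D3:**
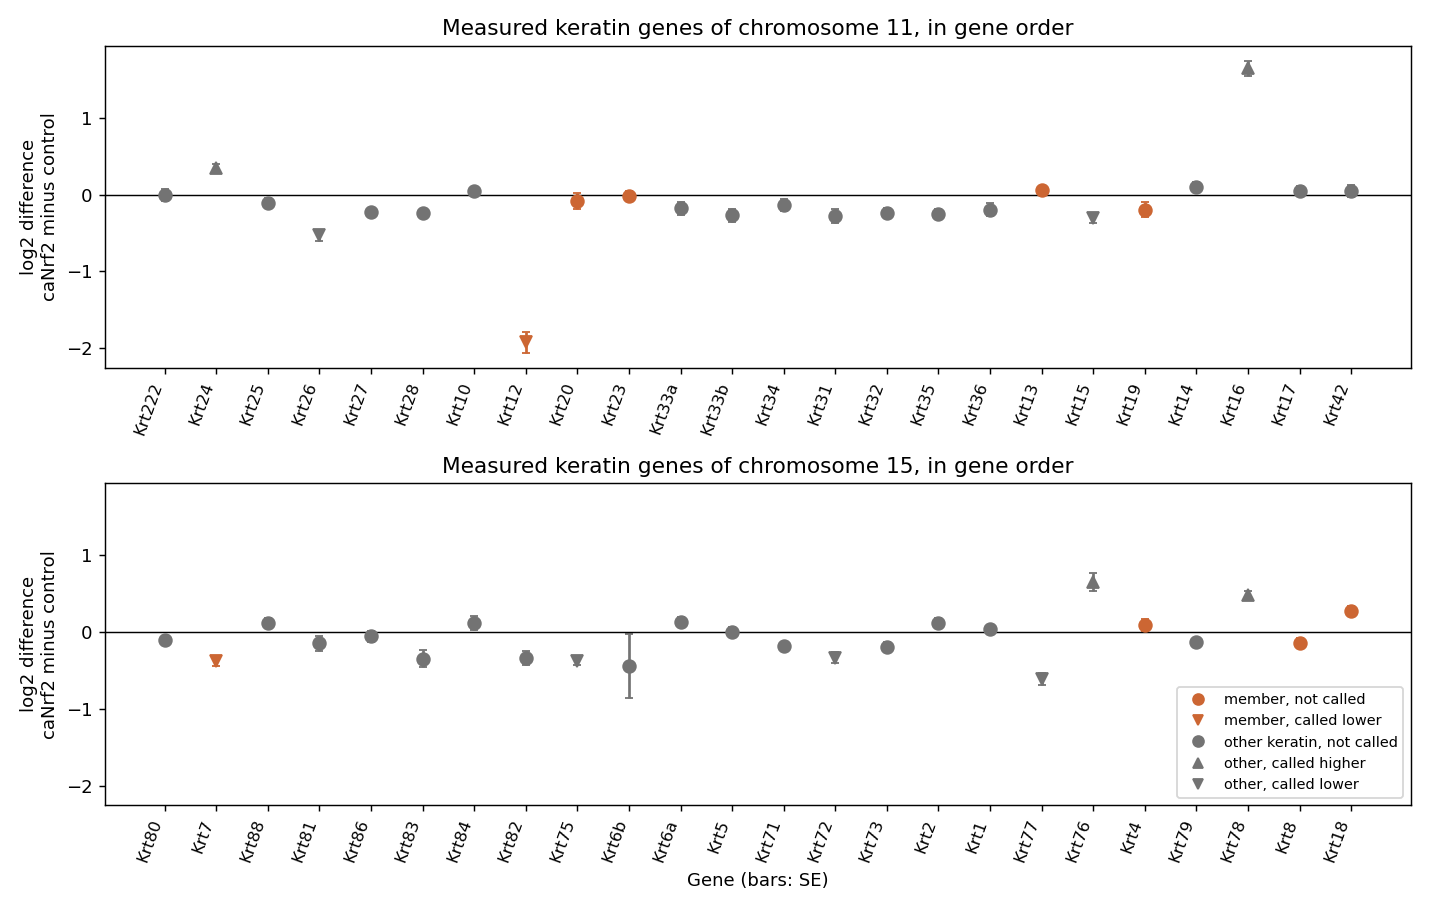
The log2 difference (caNrf2 minus control, bars SE) of all 48 measured keratin genes in their order on chromosomes 11 and 15, with the 9 genes described here in orange, the others in grey, and triangles for called genes. Krt12 has the most negative difference at -1.92, while Krt10 and Krt20 beside it lie near 0, and Krt16 has the most positive at 1.64.

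The genes with the pattern most like that of Krt12 were sought over all 6 arrays. The measure was the root mean square difference of log2 intensities, each gene centred on its control mean, over 12583 other genes of mean intensity at least 50. Genes with uncharacterised or clone symbols, such as Rik, Gm and LOC names, and mitochondrially encoded genes were left out of these 12583. The nearest 5 were Krtap6-2 (0.40), Krtap21-1 (0.47), Acsl6 (0.49), Krtap19-2 (0.52) and Krtap19-5 (0.58 on the log2 scale). The Krtap genes code for keratin-associated proteins of the hair shaft, and Acsl6 for a long-chain acyl-CoA synthetase. A gene comes near Krt12 by this measure mainly through a group difference of like size, so the arrays within a group are given too. All 4 Krtap genes were lowest among the controls in replicate 3, at -0.73 to -0.27 from the control mean on the log2 scale, while Krt12 was highest there, at 0.16. Krt12 and Acsl6 were both lowest in control replicate 2, at -0.29 and -0.10, and both lowest of the caNrf2 arrays in replicate 3. Within the controls, then, Krt12 did not follow the Krtap genes from array to array. The second Acsl6 probe set gave 0.10 ± 0.08, against -1.25 ± 0.08 for the brightest.

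**Figure D4:**
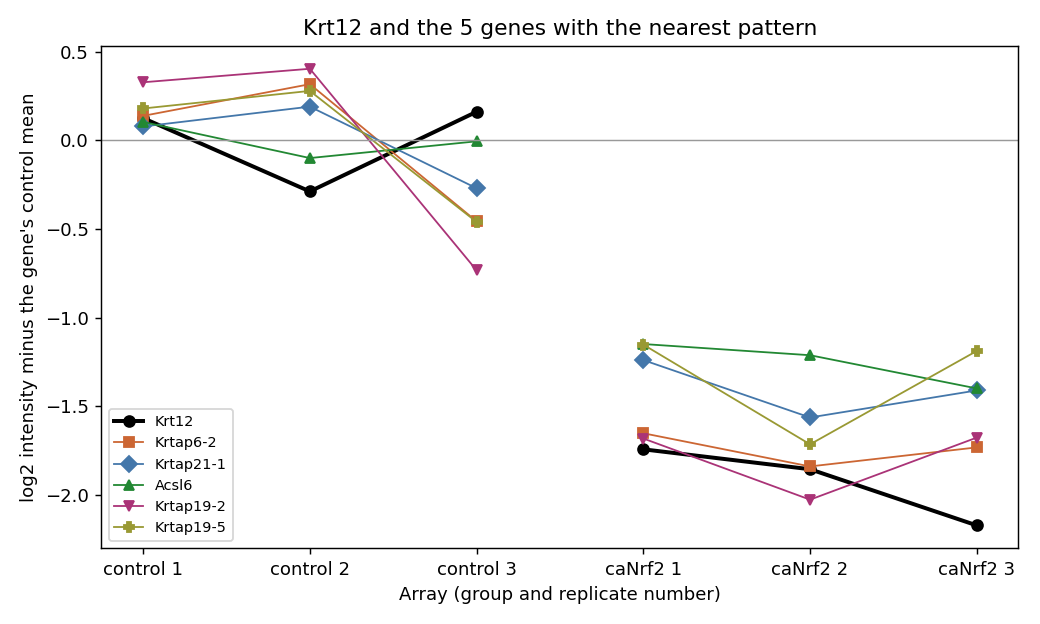
The log2 intensity of Krt12 and the 5 nearest genes on each array, minus each gene's control mean; lines only join the points of a gene within a group. In control replicate 3 Krt12 is at 0.16 while the 4 Krtap genes lie between -0.73 and -0.27.

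Other genes of the cornea, of mucosal and simple epithelia and of the cell types that carry these keratins in skin were read from marker lists. The lists were chosen with earlier results of these data known, so their calls are described and not taken as support. Over the 19 lists, 14 of 149 measured genes were called, 6 higher and 8 lower, beside 3.65% called of all genes. That count was 5 without caNrf2 replicate 3 or control replicate 1, 6 without caNrf2 replicate 2 or control replicate 2, and 8 without caNrf2 replicate 1. The skin label was borne by its defining markers, all 9 of the keratinocyte list having group means from 2837 to 20326. In limma 0 of those 9 were called, and 0 had an unadjusted p under 0.05.

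Of 12 measured genes of the cornea list, 4 rose, 1 fell and 7 were not called, with a list median of 0.16. The list is not particular to cornea, since Tkt and Klf4 had control means of 7131 and 4731 in this back skin. Pax6, the eye transcription factor known to activate Krt12, read 56.7 ± 1.13 in control and 56.8 ± 2.26 in caNrf2 skin, within the Y-linked range in both. The 4 that rose were Aldh3a1 and Tkt, enzymes abundant in cornea, the ETS factor Ehf, and Upk1b, a tetraspanin of surface epithelia. Aldh3a1 rose by 2.66 ± 0.14 and Tkt by 0.44 ± 0.06 (limma, adjusted p = 4.58e-06 and 0.00222). Ehf (0.32 ± 0.07; adjusted p = 0.0449) lost its call without any array but control replicate 2, and Upk1b (0.47 ± 0.10; adjusted p = 0.0333) when control replicate 1 or 2 or caNrf2 replicate 2 or 3 was removed. The other Upk1b probe sets gave 0.12 to 0.29. Slurp1, a secreted protein of cornea and epidermis, fell to -0.33 ± 0.07 (adjusted p = 0.0306), a call lost with the removal of any single array (largest adjusted p = 0.106). The summed intensity of the list was 13831 to 14343 in control and 16767.5 to 17227 in caNrf2 arrays, and most of that difference was Tkt (means 7131 and 9676).

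In the simple epithelium list 1 of 13 measured genes fell, 0 rose and 12 were not called, with a median of -0.07. The gene that fell was Epcam, an adhesion protein of simple epithelia and follicles, from 3132 ± 156 to 2507 ± 69.0 (log2 difference -0.32 ± 0.06; limma, adjusted p = 0.0228). That call needed every array except control replicate 3 (largest adjusted p = 0.0907), and a dimmer Epcam probe set gave 0.09 ± 0.08. In the mucosal list 0 of 7 were called in limma (2 at an unadjusted p under 0.05; median 0.03), and in the periderm list 1 of 6 rose, the cell cycle regulator Sfn, by 0.35 ± 0.06 (adjusted p = 0.0112; median 0.13).

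Merkel cells, intestine and urothelium are known to hold Krt8, Krt18 and Krt20. In limma 0 of the 11 Merkel cell markers were called, their median was 0.01, and 8 had both means within the Y-linked range. The 3 at an unadjusted p under 0.05 went both ways. Atoh1, the factor that specifies these cells, had a log2 difference of 0.21 ± 0.07 within the Y-linked range (27.7 and 32.1), Isl1 one of -0.16 ± 0.07 within it (57.5 and 51.5), and Sox2 one of -0.28 ± 0.06 above it (123 and 101). The summed level of that list was 515 to 557 in control and 522 to 551 in caNrf2 arrays. Of 5 intestinal markers 0 were called in limma (1 at an unadjusted p under 0.05) and 4 had both means within the Y-linked range. Of 5 urothelial markers only Upk1b was called in limma, although 3 had an unadjusted p under 0.05. Their log2 differences ran from 0.01 to 0.47 with a median of 0.17, and 2 had both means within the Y-linked range. Vim, Des and the other non-keratin intermediate filament genes had 0 of 13 called in limma, 4 at an unadjusted p under 0.05 and a median of 0.05.

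Krt7 and Krt19 are known from glandular and follicle cells, whose markers were read next. Elf5, an ETS factor of glandular luminal cells, fell from 212 ± 24.2 to 149 ± 4.65 (log2 difference -0.51 ± 0.08; limma, adjusted p = 0.0112) and was the only call among 7 glandular markers. It stayed called with any array left out (largest adjusted p = 0.0464), but a dimmer probe set gave -0.15 ± 0.10. Foxa1, Pgr, Csn2 and Wap of that list had both means within the Y-linked range, and the list median was 0.08. The list's summed level was 1723 to 1855 in control and 1502 to 1657 in caNrf2 arrays, a difference in which Gata3, also an inner root sheath marker, had the largest part (means 1225 and 1059, not called). Of 8 bulge and outer root sheath markers Krt15 alone was called, with a list median of -0.11 and a summed level of 12794 to 13315 in control and 11250.4 to 11630.5 in caNrf2 arrays. Of 11 hair matrix and shaft markers 0 were called in limma, although 6 had an unadjusted p under 0.05, with a median of -0.19 and a summed level of 22550.1 to 26943 in control and 21289.5 to 22945 in caNrf2 arrays. Of 9 inner root sheath markers 2 were called lower, and 7 had an unadjusted p under 0.05 in limma. The list median was -0.21, with a summed level of 62004 to 62722 in control against 54489 to 57175 in caNrf2 arrays. The bulge, hair matrix and inner root sheath lists thus had medians below 0 beside the lower Krt12 and Krt7, and their part in those differences was not tested. Medians below 0 were not particular to the follicle lists. The pigment cell (-0.22), simple epithelium (-0.07), skeletal muscle (-0.05), fibroblast (-0.05) and smooth muscle (-0.02) lists had them too.

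**Figure D5:**
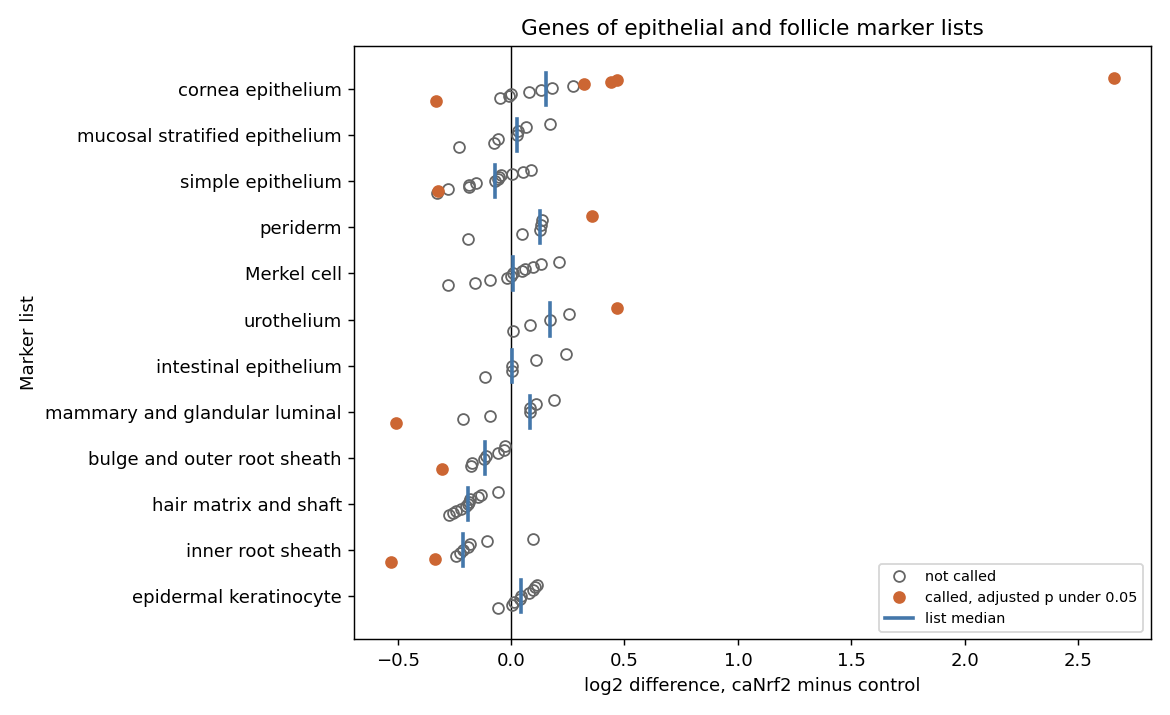
The log2 difference (caNrf2 minus control) of each gene in 12 marker lists, filled where called, with a blue bar for each list's median. Genes of the cornea list, which are not particular to cornea, lie mostly at or above 0 with Aldh3a1 at 2.66. Hair matrix and inner root sheath genes lie mostly below 0.

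The remaining cell types of the sample were read in the same way. The pigment cell list had 2 of 6 markers called lower, Mitf and Mlana, and a median of -0.22. The Mitf call needed every array except caNrf2 replicate 1, and the Mlana call every array except control replicate 3. All 6 markers had an unadjusted p under 0.05 in limma, with log2 differences from -0.38 to -0.16. The skeletal muscle, smooth muscle, fibroblast and endothelial lists had 0 calls in limma among 7, 5, 6 and 5 markers, with 1, 1, 0 and 0 at an unadjusted p under 0.05. In the immune list Cd207, a Langerhans cell protein, was the 1 call of 6, higher by 0.36 ± 0.08 (limma, adjusted p = 0.036) and lost without any single array. Nfe2l2, the gene of Nrf2, had a log2 difference of 0.63 ± 0.07 (adjusted p = 0.000736), in the direction of the transgene.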

How the data were processed

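Biotinylated cRNA from 2 ug of total RNA was hybridised to 6 Affymetrix arrays, per the labels' protocols. The authors deposited linear intensity values per probe set, made with RMA according to the submitters' processing notes; its version is not given in the sources used here. RMA equalises the arrays' distributions, so a shift shared by most transcripts cannot be seen. The number of arrays limits the precision. Symbols came from the platform annotation, updated by Entrez identifier with a RefSeq table of GRCm38.p6 (34741 of 34945 matched). The brightest of a gene's probe sets stood for it; errors of its other probe sets came from a fit over all probe sets. The log2 intensities were modelled in limma 3.58.1 in R 4.3.3 (lmFit, eBayes, group as the only term, two-sided, Benjamini-Hochberg over all genes). The script was tested on simulated data with 200 changed genes. It recovered 22% of changes of 0.25 on the log2 scale, 84% of those of 0.5 and 98% of those of 1. Of its calls there, 6.79% were false. A gene that was not called may therefore still differ by a small amount. The 9 members and the marker lists were chosen with earlier results of these data known. All members are named, with up to 4 called genes per marker list and the 5 genes nearest to Krt12. Alternatives changed the variance model, weights, normalization, offset, filter, probe set rule, pairing and arrays.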

Additional observations from a re-analysis of the deposited data

How the results depend on the processing

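The Krt12 difference stayed on the same side and within the replicate spread in all 13 alternatives, from -2.07 to -1.80 with an array left out and from -1.93 to -1.79 otherwise. Krt7 was negative in all 13, and Krt18 positive in all 12 that included it. Krt18, not called in the main fit, was called higher in 1 of these 12. There the probe sets of each gene were averaged, and its log2 difference was unchanged at 0.27. The genes called lower, 252, became 500 with an intensity trend and robust variances and 383 when genes of mean intensity under 50 were left out; for the other changes in counts the cause was not tested. With the trend and robust variances together, the marker list genes called rose from 14 to 28. Further quantile normalization gave 411 genes called higher and 200 called lower. There Krt7 was still called lower, at -0.33, and Krt13 moved to 0.003. With an array left out the genes called higher, 412, ranged from 226 to 316, those called lower from 72 to 196, and the marker list genes called from 5 to 12. With the replicate number as a block, 353 genes were called higher, 236 lower and 10 in the marker lists, and Krt12 gave -1.92. Deviations of same-numbered arrays correlated at 0.03, 0.13 and 0.09, and 5 of 6 arrays correlated best with their own number, which does not establish that the numbers pair the mice. Intensities near the Y-linked range limit what can be said of Krt13, Krt18, Krt20 and Krt4.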
